A study of Rattus norvegicus with 15 samples.

Results

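The nuclear genes that encode subunits of respiratory complexes II, III, IV and V were examined in multifidus muscle RNA of rats. Members were the protein-coding entries whose symbols are Sdha, Sdhb, Sdhc or Sdhd, or begin with Uqcr, with Cox followed by a digit from 4 to 8, or with Atp5. They came to 47 of the 37991 genes in the table: 4 of complex II, 8 of complex III, 18 of complex IV and 17 of complex V. Of these, 45 passed the filter on low counts that 17201 genes passed. The other 2, Cox7b2 and Cox8c, isoforms of complex IV subunits, had no counts in any library.

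Total RNA of the multifidus, a deep paraspinal muscle, was sequenced in 15 libraries from 5 groups of wild-type rats. All groups were male Sprague Dawley rats aged 12 weeks, and in every group but control atrophy of the paraspinal muscle was induced by surgery, which the study's methods describe as hemilaminectomy with ligation of the left L5 spinal nerve. The groups were control (2 libraries, no surgery), surgery (2 libraries, operated and untreated), and pMT (4 libraries), pMT/VitD (4 libraries) and VitD (3 libraries), each injected after the operation. pMT are mitochondria isolated from human plasma. The pMT group was injected in the left paraspinal muscle on day 14 after surgery, with 25 µg at each injection site and 50 µg per rat, and muscle was collected on day 28. VitD was cholecalciferol at 150 µg a site and 300 µg a rat, and the pMT/VitD group was given both agents at these same doses. The days of injection and collection are not given for the pMT/VitD and VitD groups in the sources used here. No label states that each library came from a separate rat, and the p-values below measure the spread between libraries of a group. pMT thus places human mitochondria in a rat host.

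Complex II oxidises succinate and passes the electrons to ubiquinone, complex III passes them on to cytochrome c, complex IV reduces oxygen, and complex V, the ATP synthase, uses the resulting proton gradient to make ATP. Complex II is built from nuclear-encoded subunits alone, whereas the catalytic cores of complexes III and IV and part of the membrane sector of complex V are encoded in mitochondrial DNA and need nuclear partners to assemble. Several complex IV subunits and the c subunit of complex V come in isoforms from separate genes, and heart and skeletal muscle carry their own forms of some of them (Cox6a2, Cox7a1 and Cox8b).

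The libraries held 52342134 to 73557878 counted reads. Between 10.7% and 22.6% of these fell on mitochondrially encoded genes. Muscle fibre genes were abundant, with mean levels of 51660 TPM for Acta1, skeletal actin, and 25530 TPM for Ckm, muscle creatine kinase. The macrophage list (10 of 10 genes tested) and the fibroblast list (6 of 6) were also expressed, with values given further below. No 2 of the 15 libraries held identical counts.

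The members were among the abundant transcripts of the tissue and together made up 2.66% to 3.42% of TPM in each library. TPM is a share of transcripts corrected for their length and was used to compare genes. Cox6a2, the muscle isoform of subunit 6a of cytochrome c oxidase, had the highest level at a mean of 2269 TPM over the 15 libraries, next to Atp5e, the epsilon subunit of the ATP synthase rotor, at 2263 TPM. Atp5b, the catalytic beta subunit, followed at 1821 TPM, and Cox4i1, the ubiquitous isoform of subunit 4, at 1547 TPM. Over libraries Cox6a2 ranged from 2030 to 2603 TPM and Atp5e from 1975 to 3067 TPM, so their order is not resolved. In complex II the membrane anchors Sdhc and Sdhd had mean levels of 337 and 304 TPM, the iron-sulfur subunit Sdhb 303 TPM and the flavoprotein Sdha 157 TPM. In complex III the highest mean levels were those of the small subunits Uqcr10 (625 TPM), Uqcrh (585 TPM), the hinge protein, and Uqcr11 (515 TPM). The third highest of complex V, after Atp5e and Atp5b, was Atp5l, subunit g of the membrane sector, at 1160 TPM, and that of complex IV, after Cox6a2 and Cox4i1, was Cox8b at 1304 TPM.

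**Figure D1:**
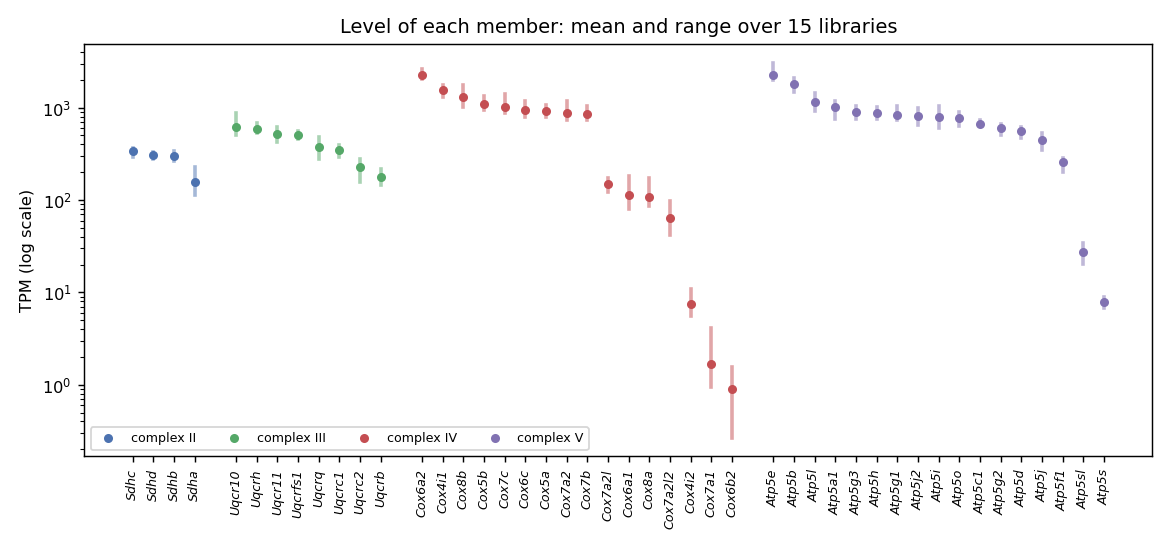
Mean TPM over 15 libraries (dots, log axis) and range from the lowest to the highest library (bars) for the 45 members tested, grouped by complex. Cox6a2 is highest at 2269 TPM, and Cox4i2, Cox7a1, Cox6b2, Atp5sl and Atp5s lie lowest, the highest of these being Atp5sl at 27.4 TPM.

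A few members were expressed at low levels. Cox6b2, a testis form of subunit 6b, averaged 0.909 TPM, and Cox4i2, the lung isoform of subunit 4, 7.47 TPM. Atp5s and Atp5sl averaged 7.93 and 27.4 TPM. RefSeq now names them Dmac2l and Dmac2, and Dmac2 is known as an assembly factor of complex I, so the name pattern takes in genes that are not ATP synthase subunits. Cox7a2l, at 149 TPM, is in the same way known as a factor of respiratory supercomplexes. The entry named Cox7a1 averaged only 1.67 TPM, although the muscle form of subunit 7a is a major transcript of skeletal muscle. A further entry that RefSeq names Cox7a1 (LOC687508 in the files) averaged 1.98 TPM. Reads of near-identical copies can be split or lost in counting, and both values are uncertain.

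For subunit 6b the name pattern missed the more abundant gene. The entry called Cox6b1 is annotated as a pseudogene and so is not a member (74.9 TPM), while LOC688869, which RefSeq names Cox6b1, had 727 TPM. Its CPM, the count scaled to library size with TMM factors, had a maximum of 429 over libraries. Atp5f1, subunit b of the peripheral stalk, has a near copy (LOC100911417, 219 TPM) beside its own 261 TPM, and its count is likewise uncertain.

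The upstream DNA of 2 members called below is shown so that the letters beside the start can be read next to the expression values. RefSeq promoter windows (build GRCr8) matched 39 of the 47 members by gene identifier. In the 250 bases upstream of the start, the ETS-type motif CCGGAAG, bound by GABP, was present on either strand in 12 of the 39 member windows (30.8%) against 2434 of all 33469 windows (7.27%), AAGATGGC, a YY1 motif, in 2 (5.13%) against 1.63%, and TCAAGGTCA, an ERR motif, in 1, Atp5g3 (2.56%), against 0.388%. Matches of different motifs did not overlap in any member window. These are matches of letters and show no binding. The windows of all genes were not filtered by gene type or by expression in this muscle, whereas members are protein-coding. Of the 9 members called below, Atp5sl had no window, and of the other 8 Uqcrh and Atp5a1 carried CCGGAAG and the rest none of the 3 motifs, and these 2 are shown for this reason. Each line gives the last 120 bases before the start, 5′ to 3′ on the coding strand, with motif matches in capitals. The windows are chr5:134790883-134791002 on the minus strand and chr18:73567417-73567536 on the plus strand, in that order.
Uqcrh: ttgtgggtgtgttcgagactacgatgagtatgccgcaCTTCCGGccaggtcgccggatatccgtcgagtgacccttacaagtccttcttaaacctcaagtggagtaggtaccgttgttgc
Atp5a1: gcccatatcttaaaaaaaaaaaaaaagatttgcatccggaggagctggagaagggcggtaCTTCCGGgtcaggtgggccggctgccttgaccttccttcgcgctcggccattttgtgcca

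Read by library, the complexes followed a like order, and libraries of a group did not always sit together. The mean log2 CPM of the 17 complex V genes was 8.26 and 8.20 in control replicates 1 and 2, and 8.09 and 8.07 in surgery. It was 8.22, 8.02, 7.86 and 8.57 in pMT replicates 1 to 4, 8.65, 8.70, 8.42 and 8.11 in pMT/VitD, and 8.02, 8.06 and 8.06 in VitD. pMT replicate 4 thus lay among the 3 high pMT/VitD libraries, and pMT/VitD replicate 4 lay among those of the pMT group. Groups are given here as labelled, and whether the labels of these 2 libraries were exchanged was not tested. Atp5a1 and Atp5sl, whose values are given below, were the only 2 members with pMT/VitD wholly above pMT (beside 2.46% of all genes). That property places both libraries with the group of their label in these 2 genes, so it is no test of the labels. The 8 complex III genes placed these libraries alike, with 7.91 and 7.84 in control, 7.77 and 7.74 in surgery, 7.89, 7.72, 7.59 and 8.23 in pMT, 8.33, 8.41, 8.12 and 7.77 in pMT/VitD, and 7.63, 7.71 and 7.75 in VitD. The 16 tested complex IV genes averaged 6.21 and 6.23 in control, 6.29 and 6.17 in surgery, 6.37, 6.04, 5.90 and 6.75 in pMT, 6.77, 6.71, 6.48 and 6.04 in pMT/VitD, and 6.36, 6.15 and 6.11 in VitD. The 4 complex II genes spanned the narrowest range. They averaged 8.08 in both control libraries, 7.90 and 7.89 in surgery, 8.06, 7.97, 7.91 and 8.19 in pMT, 8.24, 8.30, 8.14 and 8.06 in pMT/VitD, and 7.77, 7.86 and 7.90 in VitD. The median within-group SD of the members was 0.326 (log2) in pMT and 0.300 in pMT/VitD, against 0.0251 in surgery, 0.0944 in control and 0.0903 in VitD, whereas that of all 17201 genes was 0.244, 0.267, 0.0716, 0.112 and 0.216 in the same order.

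**Figure D2:**
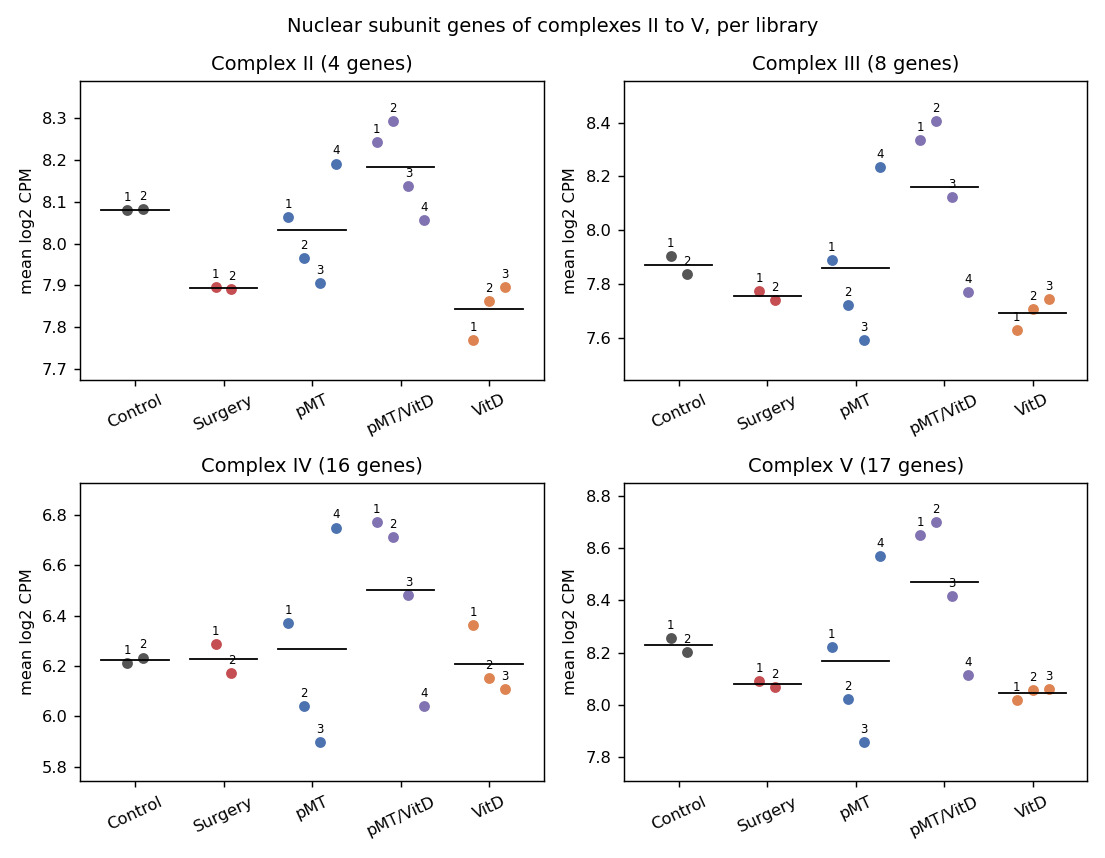
Mean log2 CPM of the tested genes of each complex (y axis, 1 panel per complex) in every library (dots, numbered by replicate), with the group mean as a line. In complexes III, IV and V, pMT replicate 4 lies with pMT/VitD replicates 1 to 3, and pMT/VitD replicate 4 lies with pMT replicates 1 to 3.

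The question of what surgery alone does to these genes was addressed with 2 libraries a group. Relative to control, 38 of 45 members had lower and 7 higher fitted values in surgery, with a median log2 fold change of -0.16 against -0.014 over all genes. No member passed an adjusted p of 0.05 in the edgeR quasi-likelihood test over all 15 libraries (1.55% of all genes did, 1.25% higher and 0.296% lower), 1, Atp5s, had an unadjusted p under 0.05, and DESeq2 called 0 (5.94% of all genes). CPM ranges did not overlap in 28 members that were lower and 6 that were higher, beside 34.4% and 31.7% of all genes. In bulk tissue, fewer muscle cells and less RNA per cell cannot be told apart. The direction depends on the scaling. With library size alone, 38 members were higher and 7 lower and the median of all genes moved to 0.25, and on the deposited TPM 43 were higher. Relative to the median of all genes, the members were lower under each, by -0.145, -0.144 and -0.14.

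In the fit over all libraries, the groups share 1 estimate of spread. When the 4 surgery and control libraries were fitted alone, 15 members passed (2 higher, 13 lower), and edgeR's exactTest on them called 18 (4 higher, 14 lower), beside 32.4% and 36.3% of all genes. The lower genes in the former included Sdha at -0.22 ± 0.0545 (SE) with adjusted p = 0.0131 and Atp5c1, the gamma subunit that forms the rotor shaft, at -0.27 ± 0.0533 (SE) with adjusted p = 0.00362, both from the quasi-likelihood test. The 2 higher genes were Cox6a1 at 0.45 ± 0.0785 (SE) (adjusted p = 0.00194, same test) and Cox8a at 0.26 ± 0.0667 (SE) (adjusted p = 0.0146), the forms of subunits 6a and 8 found in most non-muscle tissues. These 4 genes were chosen after their values were seen. The spread there rests on 2 libraries in each group.

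Injection of pMT was compared with surgery to ask whether it alters these genes. By the study's methods the surgery rats had no treatment after the operation, and no group here was injected with buffer alone. Needle and buffer thus cannot be told apart from pMT in comparisons with surgery. In pMT, 35 of 45 members had higher fitted values than in surgery and 10 lower, with a median of 0.15 against 0.021 over all genes, and 0 passed the edgeR quasi-likelihood test (1.94% of all genes did). CPM ranges of 3 members lay wholly above surgery, beside 13.2% of all genes. No member reached an unadjusted p of 0.05 there, and DESeq2 and exactTest also called 0 (4.34% and 7.1% of all genes). Without pMT replicate 4, 16 members were higher and 29 lower, with a median of -0.019, while without pMT/VitD replicate 4 the counts stayed at 35 and 10. With library size alone 20 were higher and 25 lower and the median of all genes moved to -0.12, and on the TPM scale 13 were higher and 32 lower, so the direction turns with pMT replicate 4 and with the scaling. For VitD against surgery, 0 members passed the quasi-likelihood test, DESeq2 or exactTest. There 0 members had an unadjusted p under 0.05, 16 were higher and 29 lower, the median was -0.036, and of all genes 0% were called by the quasi-likelihood test and DESeq2 and 0.0358% by exactTest. CPM ranges of 4 members lay wholly below surgery and of 0 wholly above, beside 8.16% and 7.69% of all genes. Against control, VitD had 7 members higher and 38 lower with a median of -0.19, and 0 passed the quasi-likelihood test (8.67% of all genes did, 5.48% higher and 3.2% lower), although 6 had an unadjusted p under 0.05 in that test. DESeq2 called 1, lower (14.4% of all genes), and exactTest 0 (12.9%). CPM ranges of 23 members lay wholly below control and of 2 wholly above, beside 27.1% and 25% of all genes. With library size alone, 36 of the 45 were higher in VitD than in control and the median of all genes moved to 0.27.

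The combination of pMT and VitD gave the highest group mean CPM in 39 of the 45 members, and VitD gave the lowest in 25. Against surgery, 41 members had higher fitted values in pMT/VitD, with a median of 0.42 against -0.0016 over all genes. No member passed the quasi-likelihood test (7.44% of all genes did, 2.4% higher and 5.03% lower), the lowest adjusted p being 0.0812 for Atp5s, while 14 had an unadjusted p under 0.05. DESeq2 called 7 members, all higher (14.5% of all genes), and exactTest called 0 (10.8%). CPM ranges of 22 members lay wholly above surgery, beside 16.6% of all genes, and 0 lay wholly below, beside 20.2%. With library size alone 30 members were higher than in surgery, and on the TPM scale 17. Against pMT, 42 members had higher fitted values with a median of 0.28, yet 0 passed the quasi-likelihood test, DESeq2 or exactTest, 4 had an unadjusted p under 0.05 in the first of these, and of all genes 0% passed the quasi-likelihood test and exactTest and 1.18% DESeq2. Only Atp5a1 and Atp5sl had CPM ranges wholly above those of pMT, beside 2.46% of all genes. The surgery libraries enter 4 of the comparisons and the others share libraries likewise, so their results are not independent of each other.

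Against VitD, most members had higher fitted values in pMT/VitD, and here single genes passed the test. Of 45 members, 9 passed the edgeR quasi-likelihood test with Benjamini-Hochberg adjustment over all genes, each of them higher (20% of members, beside 9.66% of all genes called higher and 21.9% called in either direction). They were Uqcr10, Uqcrh and Uqcrfs1 of complex III, Cox5a of complex IV, and Atp5e, Atp5g1, Atp5d, Atp5sl and Atp5a1 of complex V, that is 3 of 8, 1 of 16, 5 of 17 and, in complex II, 0 of 4. Atp5sl is counted under complex V by its symbol only, as is Atp5s among the 17. In all, 28 had an unadjusted p under 0.05, 42 had higher fitted values and the median was 0.43, against 0 over all genes. The count depended on single libraries, and the share of all genes called moved as well. Without VitD replicate 1, 1 member passed (10.9% of all genes), and without VitD replicate 2, 2 did (14.7%). Without pMT/VitD replicate 2, 2 passed (15.6%), and without pMT/VitD replicate 1, 4 did (16.8%). Without pMT replicate 4, 21 passed (25.2%), and without pMT/VitD replicate 4, 27 did (26.5%). With the replicate number as a block 2 passed (15.7% of all genes). CPM ranges of 19 members lay wholly above VitD, beside 13% of all genes. DESeq2 called 23 (28.1% of all genes) and exactTest 9 (17.9%), each higher. With library size alone the median of all genes moved to -0.34 and the count was 1, lower in pMT/VitD (33.5% of all genes passed). The median of the members then was 0.067, which is 0.409 above that of all genes. On the TPM scale 21 members were higher and 24 lower, and their median was 0.4 above that of all genes.

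In complex II none of the 4 genes passed, and the 4 had a narrow range of log2 fold changes against VitD, from 0.31 to 0.39. Sdha, the flavoprotein that holds the succinate site, had CPM values of 275 and 289.7 in control, 238 and 239 in surgery, 277, 291, 318 and 252 in pMT, 272, 279.9, 263 and 305 in pMT/VitD, and 179, 234 and 252 in VitD. In pMT its highest value was that of replicate 3 and its lowest that of replicate 4, the reverse of the complex means, and pMT/VitD lay wholly above VitD. The fold change against VitD was 0.34 ± 0.127 (SE), with adjusted p = 0.0703 in the quasi-likelihood test. Sdhc, an anchor in the inner membrane, had CPM values of 303 and 308 in control, 263 and 269 in surgery, 294, 263, 239 and 344 in pMT, 333, 357, 304 and 299 in pMT/VitD, and 254, 257 and 271 in VitD. Here pMT replicate 4 was the highest of its group and pMT/VitD lay wholly above VitD. The fold change against VitD was 0.31 ± 0.125 (SE) (adjusted p = 0.0894, same test). Sdhd, the other anchor, had CPM values of 277 and 285 in control, 248 and 245 in surgery, 286, 248, 235 and 334 in pMT, 347, 373, 305 and 265 in pMT/VitD, and 237, 252 and 251 in VitD. It too lay above VitD in all 4 pMT/VitD libraries, with a fold change of 0.39 ± 0.140 (SE) (adjusted p = 0.0617). Sdhb, which carries the iron-sulfur clusters, had CPM values of 233 and 213 in control, 207 and 201 in surgery, 221, 206, 185 and 253 in pMT, 269, 261, 258 and 208 in pMT/VitD, and 211, 194 and 187 in VitD. Its pMT/VitD replicate 4 lay below VitD replicate 1, and the fold change was 0.34 ± 0.126 (SE) (adjusted p = 0.0687).

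In complex III 3 of 8 genes passed, Uqcr10, Uqcrh and Uqcrfs1. Uqcr10, a small subunit near cytochrome c1, had CPM values of 209 and 176 in control, 174 and 171 in surgery, 192, 165, 141 and 311 in pMT, 324, 349.7, 253 and 184 in pMT/VitD, and 161, 162 and 163 in VitD. The 3 highest values were those of pMT/VitD replicates 1 and 2 and pMT replicate 4, and all 4 pMT/VitD values exceeded the 3 of VitD. It was higher in pMT/VitD than in VitD by 0.78 ± 0.248 (SE) on the log2 scale (adjusted p = 0.0381, quasi-likelihood test). Uqcrh had CPM values of 237 and 242 in control, 207 and 205 in surgery, 243, 211, 195 and 301 in pMT, 352, 352, 285 and 215 in pMT/VitD, and 209, 204 and 205 in VitD, and its pMT/VitD replicate 4 exceeded the highest VitD value by little. The fold change was 0.54 ± 0.173 (SE) (adjusted p = 0.0373). Uqcrfs1, the Rieske iron-sulfur protein and the last subunit to be inserted, had CPM values of 426 and 462 in control, 361 and 361 in surgery, 435, 391, 350.1 and 486 in pMT, 518, 544, 478 and 422 in pMT/VitD, and 313, 356 and 386 in VitD. All 4 pMT/VitD values lay above VitD and above surgery, and the fold change against VitD was 0.48 ± 0.135 (SE) (adjusted p = 0.0215). Uqcr11, the third most abundant of the complex, had CPM values of 205 and 174 in control, 186 and 179.6 in surgery, 203, 173, 154 and 251 in pMT, 278, 295, 242 and 162 in pMT/VitD, and 153, 166 and 183 in VitD. Its groups overlapped, since pMT/VitD replicate 4 lay among the VitD libraries, and the fold change of 0.54 ± 0.197 (SE) did not pass (adjusted p = 0.0611). The core proteins Uqcrc1 and Uqcrc2 had log2 fold changes of 0.34 ± 0.126 (SE) and 0.30 ± 0.137 (SE) with adjusted p-values of 0.0661 and 0.129 in that test.

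In complex IV only Cox5a passed. Cox5a, a matrix-side subunit that binds a thyroid hormone metabolite, had CPM values of 442 and 419.6 in control, 360.2 and 362 in surgery, 434, 380.2, 345 and 505 in pMT, 531, 589.6, 527 and 401 in pMT/VitD, and 299, 337 and 365 in VitD. All 4 pMT/VitD values lay above all VitD and surgery values. It was higher than in VitD by 0.62 ± 0.154 (SE) on the log2 scale, with the lowest adjusted p of any member (adjusted p = 0.0120, quasi-likelihood test). Its test over the 5 groups gave adjusted p = 0.0788, also the lowest of the members. Cox6a2 had CPM values of 917 and 791 in control, 714 and 685 in surgery, 869, 732, 599.7 and 937 in pMT, 994, 968, 1053 and 727 in pMT/VitD, and 641, 684 and 711 in VitD. It lay wholly above VitD, with a fold change of 0.46 ± 0.164 (SE) and adjusted p = 0.0571. Cox4i1 had CPM values of 807 and 736 in control, 741 and 709 in surgery, 752, 693, 573 and 1158 in pMT, 1158, 1137, 978 and 730.1 in pMT/VitD, and 773, 679 and 646 in VitD. pMT replicate 4 equalled the highest pMT/VitD library, pMT/VitD replicate 4 fell among VitD, and the fold change of 0.52 ± 0.215 (SE) did not pass (adjusted p = 0.0989). Cox8b, the muscle form of subunit 8, had CPM values of 308 and 288 in control, 296 and 283 in surgery, 276, 228, 198 and 496 in pMT, 478, 521, 376 and 245 in pMT/VitD, and 266, 262 and 269 in VitD. pMT replicate 4 lay among the high pMT/VitD libraries and pMT/VitD replicate 4 below all VitD libraries. Its fold change was 0.61 ± 0.286 (SE) with adjusted p = 0.141 in the same test.

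In complex V the catalytic, rotor and stalk genes shared a direction, and all 17 entries had higher fitted values in pMT/VitD than in VitD. These 17 include Atp5s and Atp5sl, which are placed here by symbol only. Atp5e had CPM values of 619 and 591 in control, 548 and 524 in surgery, 641, 520.3, 449 and 899 in pMT, 1010, 1060, 754 and 567 in pMT/VitD, and 471, 499 and 532 in VitD. All pMT/VitD values exceeded those of VitD, and pMT replicate 4 was the third highest library. The fold change was 0.76 ± 0.235 (SE) (adjusted p = 0.0330, quasi-likelihood test). Atp5d, the delta subunit at the foot of the rotor, had CPM values of 423 and 345 in control, 347 and 326 in surgery, 389, 351, 315 and 474 in pMT, 491, 528, 478 and 375 in pMT/VitD, and 346, 299 and 301 in VitD, with no overlap between pMT/VitD and VitD. Its fold change was 0.57 ± 0.156 (SE) (adjusted p = 0.0188). Atp5a1, the alpha subunit of the catalytic head, had CPM values of 1514 and 1496 in control, 1273 and 1262 in surgery, 1387, 1353, 1310 and 1375 in pMT, 1562, 1692, 1482 and 1569 in pMT/VitD, and 1037, 1255 and 1299 in VitD. Its pMT/VitD replicate 4 was its second highest library and its pMT replicate 4 was not raised, unlike the small subunits, and the fold change was 0.40 ± 0.116 (SE) (adjusted p = 0.0251). Atp5b, its catalytic partner, had CPM values of 2414 and 2330 in control, 2285 and 2280 in surgery, 2458, 2247, 2096 and 2585 in pMT, 2840, 2972, 2568 and 2341 in pMT/VitD, and 1752, 2246 and 2430 in VitD. The groups overlapped through pMT/VitD replicate 4 and VitD replicate 3, and the fold change was 0.32 ± 0.145 (SE) (adjusted p = 0.125).

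Of the genes for the c subunit, which forms the rotating ring and is made in the same mature form from 3 genes, only Atp5g1 passed. Atp5g1 had CPM values of 410.4 and 334 in control, 312 and 297 in surgery, 355, 305, 266 and 514 in pMT, 508, 551, 424 and 353 in pMT/VitD, and 303, 276 and 287 in VitD. All pMT/VitD values lay above VitD, by a fold change of 0.67 ± 0.205 (SE) (adjusted p = 0.0321, quasi-likelihood test). Atp5g2 and Atp5g3 had fold changes of 0.41 ± 0.152 (SE) and 0.29 ± 0.193 (SE) with adjusted p-values of 0.0696 and 0.305. Atp5sl had CPM values of 43.7 and 39.5 in control, 36.3 and 36.7 in surgery, 36.3, 35.0, 36.9 and 37.3 in pMT, 40.9, 45.3, 40.0 and 45.9 in pMT/VitD, and 23.7, 34.4 and 36.5 in VitD. VitD replicate 1 was the lowest of the 15 libraries, pMT/VitD lay wholly above VitD and pMT, and the fold change against VitD was 0.45 ± 0.124 (SE) (adjusted p = 0.0197). Atp5sl was the one member with an unadjusted p under 0.05 for the interaction in that test (0.45 ± 0.185 (SE), adjusted p = 0.899). The interaction asks whether the pMT/VitD to VitD difference departs from the pMT to surgery difference. Atp5l had CPM values of 402 and 350.1 in control, 389 and 371 in surgery, 426, 347, 289.8 and 583 in pMT, 579, 589, 475 and 339 in pMT/VitD, and 433, 388 and 343 in VitD. Its groups overlapped and its fold change of 0.35 ± 0.225 (SE) did not pass (adjusted p = 0.282). For the interaction, 0 of 45 members and 0% of all genes passed the quasi-likelihood test, and DESeq2 called 0 members. For any difference among the 5 groups, 0 members passed that test and 11.8% of all genes did, while 10 members had an unadjusted p under 0.05 and DESeq2 called 8 (21.6% of all genes).

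The members are encoded by short transcripts, and their level in a library moved with that library's trend of expression on gene length. Length was taken as the ratio of mean count to mean TPM. All 45 tested members were shorter than the median of all genes, with a median of 0.244 times that length. Across all genes, the rank correlation between length and deviation from the mean expression ran from -0.394 in pMT/VitD replicate 1 to 0.453 in pMT replicate 3. It was -0.388 and -0.322 in pMT/VitD replicate 2 and pMT replicate 4, 0.361 in pMT replicate 2, and 0.154 in pMT/VitD replicate 4. The 4 libraries with values below -0.1, the other being pMT/VitD replicate 3 at -0.165, were the 4 with the highest member means. Within the 45 members the rank correlation was -0.804, -0.69 and -0.697 in pMT/VitD replicates 1 and 2 and pMT replicate 4, and 0.704, 0.651 and 0.621 in pMT replicates 3 and 2 and pMT/VitD replicate 4. These are correlations over genes, which are not independent replicates. Sdha, the longest member at 0.906 times the median length, was highest in pMT replicate 3, where the mean of the members was lowest. Atp5s, the next longest at 0.786, went the other way within pMT, with 9.717 CPM in replicate 3, its lowest there, and 13.18 CPM in replicate 4, its highest. The long members thus did not share 1 order of libraries.

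With each library's trend on length removed, the spread of the member means shrank in surgery, pMT and pMT/VitD and grew in control and VitD, and pMT replicate 4 was still the highest of its group and pMT/VitD replicate 4 the lowest. The mean log2 CPM of the 45 members then was 7.43 and 7.46 in control, 7.39 and 7.36 in surgery, 7.51, 7.44, 7.47 and 7.54 in pMT, 7.57, 7.55, 7.52 and 7.43 in pMT/VitD, and 7.31, 7.40 and 7.44 in VitD. As counted, the same means were 7.45 and 7.43, 7.38 and 7.32, 7.49, 7.26, 7.12 and 7.83, 7.89, 7.91, 7.65 and 7.31, and 7.34, 7.30 and 7.30. Removing the trend can also remove a difference that short genes share, and its part in the result was not tested.

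**Figure D3:**
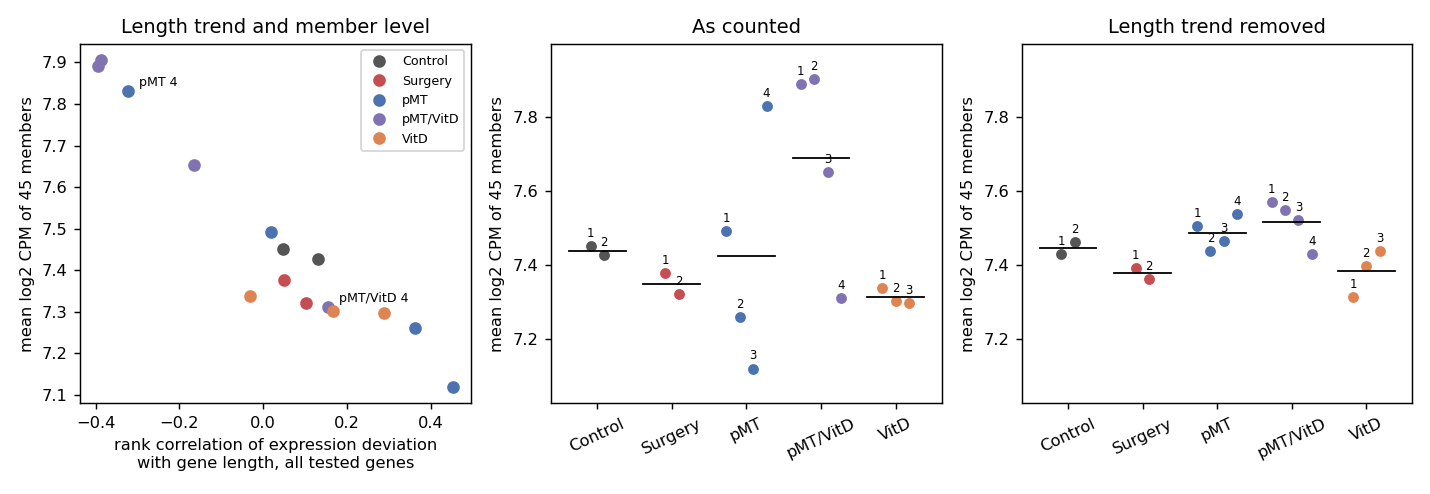
Left: mean log2 CPM of the 45 members in each library (y axis) against the rank correlation of that library's expression deviations with gene length over all tested genes (x axis). Centre and right: the same means per group as counted and with the length trend removed, on 1 scale, with replicate numbers and group means (lines), where pMT replicate 4 falls from 7.83 to 7.54.

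Between pMT/VitD and VitD, more members passed after this step, and the median fold change of the members was smaller. The median log2 fold change was 0.18 (all genes 0.024), 38 members had higher fitted values, and 18 members passed the quasi-likelihood test, 15 higher and 3 lower (25.5% of all genes passed). Of the 9 named above, 8 were among them, and Uqcrh was not. Atp5d had a fold change of 0.37 ± 0.0784 (SE) (adjusted p = 0.00389, quasi-likelihood test), Atp5g1 0.34 ± 0.0785 (SE) (adjusted p = 0.00709) and Atp5a1 0.39 ± 0.0923 (SE) (adjusted p = 0.00816). In complex II, Sdha and Sdhd passed at 0.37 ± 0.115 (SE) (adjusted p = 0.0316) and 0.26 ± 0.0820 (SE) (adjusted p = 0.0303). The 3 lower members were the non-muscle isoform genes Cox6a1 at -0.38 ± 0.113 (SE) (adjusted p = 0.0252) and Cox8a at -0.34 ± 0.103 (SE) (adjusted p = 0.0268), and the uncertain entry Cox7a1 at -0.79 ± 0.260 (SE) (adjusted p = 0.0384). Against surgery, 5 members passed in this fit, Uqcr10, Atp5c1, Atp5d, Atp5g1 and Atp5s, all higher in pMT/VitD (10.5% of all genes passed). The trend was estimated from these same counts and then held fixed, so the SEs and p-values of this fit leave out its uncertainty.

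**Figure D4:**
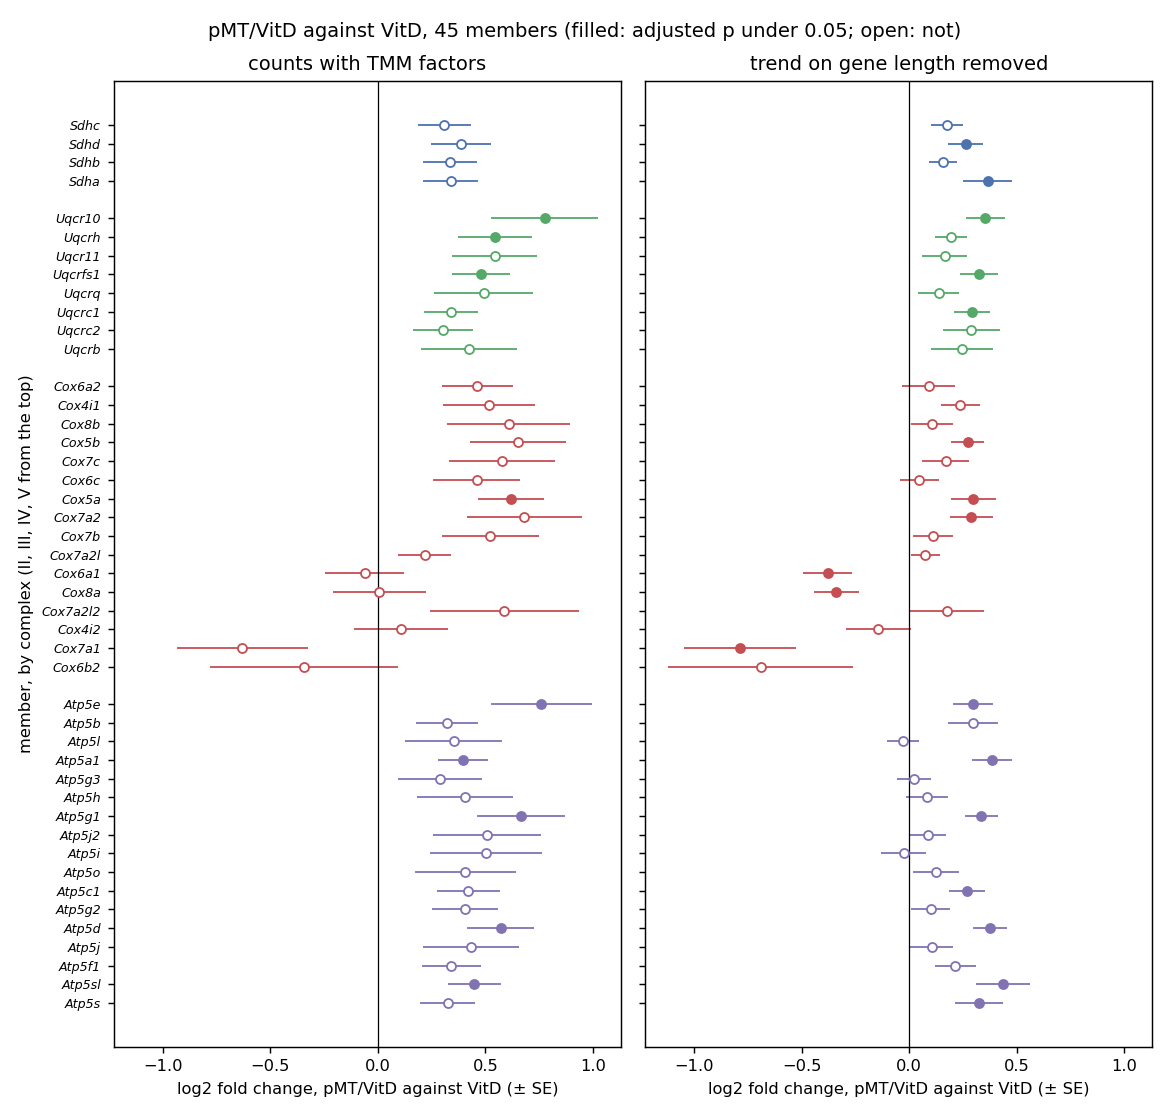
Log2 fold change of pMT/VitD against VitD (x axis, bars ± SE) for each of the 45 members in order of complex, as counted (left) and with the trend on gene length removed (right), on 1 scale. Filled points passed an adjusted p of 0.05: 9 on the left, all higher, and 18 on the right, 15 higher and 3 lower.

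Leaving out pMT replicate 4 and pMT/VitD replicate 4 changed several counts. They were chosen because their values stand apart, so counts without them are no separate test. Without both, 33 of 45 members were higher in pMT/VitD than in pMT (18.3% of all genes passed), 31 higher than in surgery (20.1%) and 38 higher than in VitD (32%), by the quasi-likelihood test. Against pMT, the 33 were 3 of 4 genes of complex II, 6 of 8 of complex III, 11 of 16 of complex IV and 13 of 17 of complex V. Those that did not pass included Sdha at -0.11 ± 0.117 (SE) (adjusted p = 0.544) and Uqcrc2 at 0.083 ± 0.137 (SE) (adjusted p = 0.724), while Cox8b at 0.98 ± 0.139 (SE) and Atp5i, subunit e, at 0.95 ± 0.134 (SE) had the largest fold changes. With both libraries kept and the length trend removed, 0 members passed against pMT.

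The isoforms found in most tissues had low CPM beside the muscle forms of subunits 6a and 8. Cox6a1 had CPM values of 39.9 and 35.0 in control, 51.8 and 48.4 in surgery, 48.6, 42.3, 36.6 and 54.6 in pMT, 55.3, 48.6, 45.7 and 35.7 in pMT/VitD, and 63.2, 44.8 and 36.9 in VitD. VitD replicate 1 was its highest library, and surgery lay above control in both libraries. The fold change of pMT/VitD against VitD was -0.061 ± 0.184 (SE) (adjusted p = 0.843, quasi-likelihood test). Cox8a had CPM values of 35.2 and 36.4 in control, 43.2 and 40.7 in surgery, 34.5, 30.7, 28.5 and 52.9 in pMT, 47.6, 48.5, 38.3 and 32.5 in pMT/VitD, and 54.9, 35.4 and 34.3 in VitD, again highest in VitD replicate 1 and higher in surgery than in control. Its fold change was 0.0071 ± 0.215 (SE) (adjusted p = 0.986). Cox7a2, the ubiquitous form of subunit 7a, had CPM values of 302 and 297 in control, 266 and 267 in surgery, 295, 243, 215 and 494 in pMT, 503, 527, 365 and 271 in pMT/VitD, and 290.4, 248 and 241 in VitD. pMT/VitD replicate 4 lay among the VitD libraries, and the fold change of 0.68 ± 0.267 (SE) did not pass (adjusted p = 0.0810).

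The paired isoforms of complex IV were read as shares of TPM, as a description with no test. Cox6a1, the liver form of subunit 6a, made up 3.61% ± 0.0374 (SD, n = 2) of Cox6a1 and Cox6a2 in control and 5.76% ± 0.106 (n = 2) in surgery. It was 4.74% ± 0.161 (n = 4) in pMT, 4.06% ± 0.392 (n = 4) in pMT/VitD and 5.77% ± 1.81 (n = 3) in VitD. All pMT libraries lay below both surgery libraries and above both control libraries, and the VitD libraries ran from 4.24% to 7.77%. Cox8a, the liver form of subunit 8, made up 7.19% ± 0.462 of Cox8a and Cox8b in control, 8.55% ± 0.0708 in surgery, 7.59% ± 0.883 in pMT, 6.44% ± 0.999 in pMT/VitD and 9.12% ± 2.29 in VitD, with the same n. Cox8a shares in pMT overlapped both control and surgery. Cox8b is shorter than Cox8a (0.128 and 0.2 times the median length), and Cox6a2 is shorter than Cox6a1 (0.187 and 0.222). The part of the length trend in the shares of these 2 pairs was not tested. Cox4i2 made up 0.36% to 0.672% of the subunit 4 pair in any library. Cox7a2 took 82.4% to 89.4% of a set of 3 genes, the others being the uncertain entry Cox7a1 and Cox7a2l, known as a supercomplex factor. This share is thus no measure of the balance between muscle and ubiquitous forms of subunit 7a. Cox7b took the whole of its pair.

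**Figure D5:**
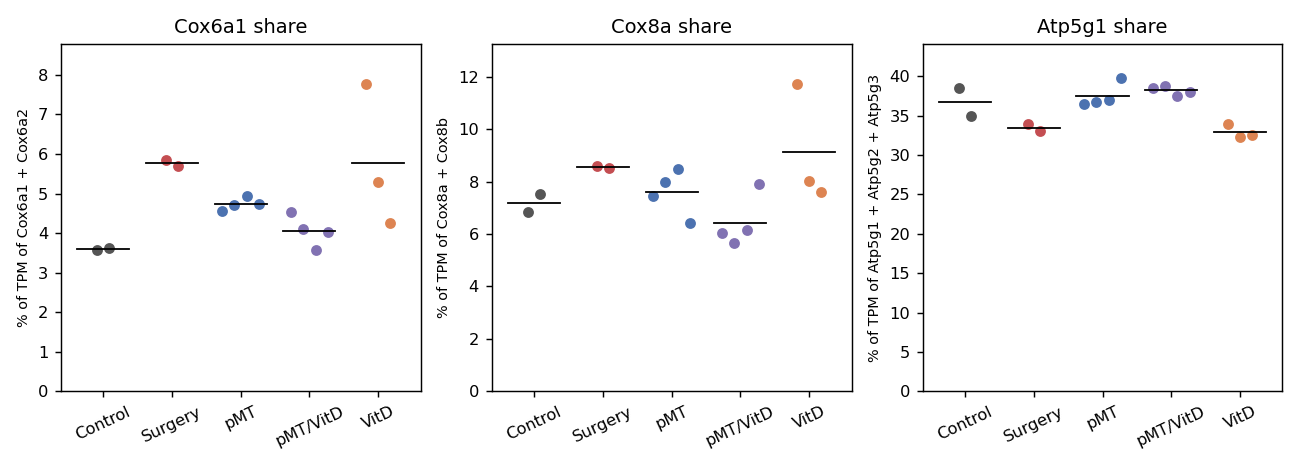
Share of TPM (y axis, %) taken by Cox6a1 among Cox6a1 and Cox6a2, by Cox8a among Cox8a and Cox8b, and by Atp5g1 among the 3 genes for the ATP synthase c subunit, in every library (dots) with group means (lines). The Cox6a1 share of the pMT libraries, 4.56% to 4.95%, lies between control (3.58% to 3.63%) and surgery (5.68% to 5.83%).

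Among the 3 genes for the c subunit, Atp5g1 took 36.7% ± 2.45 (SD, n = 2) of TPM in control, 33.5% ± 0.585 (n = 2) in surgery, 37.5% ± 1.49 (n = 4) in pMT, 38.2% ± 0.571 (n = 4) in pMT/VitD and 33.0% ± 0.915 (n = 3) in VitD. The lowest share in a pMT or pMT/VitD library, 36.5%, exceeded the highest in surgery, 33.9%, and in VitD, 34%, while control overlapped them at 35% to 38.5%. Atp5g3 moved the other way, with 40.1% ± 0.289 in surgery and 40.8% ± 1.15 in VitD against 37.6% ± 0.68 in pMT and 36.3% ± 0.843 in pMT/VitD. Atp5g2 took 22.3% to 27.8% in any library. A share within a set does not depend on the scaling of the library. Atp5g1 is the shortest of these c subunit genes and Atp5g3 the longest (0.229, 0.250 and 0.297 times the median for Atp5g1, Atp5g2 and Atp5g3). The part of the length trend in these shares was not tested.

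Levels of other cell types differed in the contrast in which members passed, and also in contrasts in which 0 members passed. Over all genes, 9.66% were called higher and 12.2% lower in pMT/VitD than in VitD. The summed CPM of the 10 macrophage markers was 303 to 319.6 in control, 591 to 599 in surgery, 250 to 339 in pMT, 233 to 342 in pMT/VitD and 508 to 794 in VitD, and 10 of 10 were lower in pMT/VitD than in VitD by the quasi-likelihood test. Of 6 fibroblast markers 5 were lower, with sums of 1917 to 2729 CPM in pMT/VitD against 3694 to 6882 CPM in VitD. The 6 muscle fibre markers summed to 106400 to 121400 CPM in pMT/VitD and 64100 to 93280 CPM in VitD, and 2 of 6 were higher. Of the fibre type lists, 3 of 10 fast fibre markers were higher, and 1 of 9 slow fibre markers lower. Of 7 adipocyte and 6 endothelial markers, 1 each was lower. Against surgery, where 0 members passed, 10 macrophage and 3 fibroblast markers were lower in pMT/VitD (5.03% of all genes). In pMT, 5 and 1 were lower than in surgery (1.55%). Relative to control, 6 and 4 were higher in VitD (5.48%), and 2 and 0 in surgery (1.25%). No macrophage or fibroblast marker was called in VitD against surgery or in pMT/VitD against pMT. All of these markers passed the filter on low counts, and their part in the result was not tested. VitD replicate 1 had the highest macrophage and fibroblast sums and the lowest muscle fibre sum. Without it, 1 member passed between pMT/VitD and VitD in place of 9 (10.9% of all genes in place of 21.9%). The median log2 fold change of the members was 0.435 without it and 0.426 with all libraries. The count also fell without VitD replicate 2, as given above.

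Factors that assemble these complexes were read in the same comparison. Between pMT/VitD and VitD, the quasi-likelihood test called 2 of 3 tested factors of complex II, 2 of 6 of complex III, 6 of 22 of complex IV and 2 of 4 of complex V, each higher, with list medians of 0.46, 0.31, 0.42 and 0.38. Sdhaf3, which helps to mature Sdhb, had a log2 fold change of 0.73 (adjusted p = 0.00758), and Uqcc2, needed early in complex III assembly, 0.75 (adjusted p = 0.0303). Cox19, a copper handling factor of complex IV, had 0.65 (adjusted p = 0.00139), and Atpaf2, a chaperone of the alpha subunit, 0.45 (adjusted p = 0.00569), all from edgeR's quasi-likelihood test. In surgery against control and in pMT against surgery, 0 factors of the 4 lists passed that test. The counts between pMT/VitD and VitD stand beside 9.66% of all genes called higher and 21.9% called in either direction.

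Of the carriers and further subunits outside the name pattern, 1 of 5 tested passed, Cycs, cytochrome c, at 0.52 (adjusted p = 0.044, quasi-likelihood test), beside 21.9% of all genes called and 9.66% called higher. Cyct, the testis form, was not tested. The 6 mitochondrially encoded subunits of complexes III to V, each at 14500 TPM or more, had a median of 0.66 between pMT/VitD and VitD, and 0 of 6 passed. Their summed CPM was 122000 to 129200 in control, 76190 to 79200 in surgery, 79220 to 206100 in pMT, 92070 to 163200 in pMT/VitD and 78590 to 88300 in VitD, the highest being pMT replicate 4. Relative to control, their median was -0.68 in surgery, beside -0.16 for the nuclear members, and this difference was not tested.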

How the data were processed

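Total RNA from the multifidus was sequenced as read pairs in 15 libraries (control 2, surgery 2, pMT 4, pMT/VitD 4, VitD 3), and each column was assigned by its label. Per the submitters' processing notes, the authors used Trimmomatic 0.38, HISAT2 2.1.0, SAMtools 1.9, StringTie 2.1.3b and edgeR 3.40.2 on build rn6. The design text names RefSeq as the source of the gene annotation. The authors deposited 1 table with a raw read count, an FPKM and a TPM value for each gene and library. The counts as deposited are not normalized, and the deposited FPKM values, which the authors scaled by length and depth, were not used here. The deposited TPM values, which the authors scaled by length within each library, served for levels and shares. Strand handling and the treatment of reads from near-identical copies are not given in the sources used here.

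Counts were filtered with filterByExpr (17201 of 37991 genes kept), scaled with TMM and fitted in 1 model over all libraries with edgeR 4.0.16 in R 4.3.3 (glmQLFit with robust estimation, glmQLFTest, two-sided). Adjusted p-values are Benjamini-Hochberg values over all genes tested, and a gene was called under 0.05. Standard errors come from this fit, and CPM is scaled with TMM factors. Mean log2 CPM uses a prior count of 2. The code was tested on simulated data. Totals of 52342134 to 73557878 reads (median 64352162) make counting error small for all but the lowest members, and precision is set by the number of libraries.

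Alternatives were RLE factors, library size alone, DESeq2 1.42.0, other filters, the replicate number as a block, each library left out, pMT replicate 4 and pMT/VitD replicate 4 both left out, the trend on gene length removed (lowess, span 0.5), and fits of the 2 groups compared by the quasi-likelihood test or exactTest. Members and lists were chosen with earlier results of these data known, and the pair of libraries left out was likewise chosen with their values known. Named genes were the 3 members of each complex with the highest mean TPM, members of isoform sets, up to 8 called members per comparison and direction by fold change, and the members outside the filter. Sdha, Uqcrc1, Uqcrc2, Atp5a1, Atp5c1, Atp5f1, Atp5i and Atp5s were added after their values were seen. Replicate numbers were compared over 24 same-numbered pairs of libraries, and they are not known to pair the samples. In groups of 2 libraries the deviations from the group mean mirror each other, so this check cannot exclude pairing. Gene positions on rn6 are not given, since the RefSeq tables used here are of build GRCr8.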

Additional observations from a re-analysis of the deposited data

Results flagged for a closer look

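In the 2 groups of 4 libraries, the CPM of the 45 tested members, the mean log2 CPM of the 4 complexes and 3 isoform shares gave 104 sets of 4 values, and 1 held a library far from its group. Cox4i2, the lung isoform of cytochrome c oxidase subunit 4, had 6.212 CPM in pMT replicate 4, whereas pMT replicates 1 to 3 ranged from 3.928 to 4.195 CPM. Chance marks about 1 in 20 groups in this way, which comes to 5.2 of 104. Its mean level was 7.47 TPM.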

How the results depend on the processing

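Between surgery and control, 0 members passed, but 15 did in a fit of those 2 groups alone (32.4% of all genes) and 18 with exactTest (36.3%). Between pMT/VitD and surgery, 0 passed, but 5 did with the length trend removed (10.5% of all genes) and 7 with DESeq2 (14.5%). Without pMT replicate 4 and pMT/VitD replicate 4, 31 passed (20.1%). Leaving out 1 library gave 0 to 5, with 2 without pMT replicate 4 (9.84%) and 5 without pMT/VitD replicate 4 (12.8%). Between pMT/VitD and pMT, 0 passed, and 33 without both libraries (18.3% of all genes). Between pMT/VitD and VitD, 9 passed (21.9% of all genes), against 18 with the length trend removed (25.5%) and 38 without both libraries (32%). The count was 4 in the 2 groups alone (11.3%), 23 with DESeq2 (28.1%), and 1, lower, with library size only (33.5%). There, leaving out 1 library gave 1 to 27. The counts were 21 without pMT replicate 4 (25.2%), and 4, 2 and 27 without pMT/VitD replicates 1, 2 and 4 (16.8%, 15.6% and 26.5%). They were 1 and 2 without VitD replicates 1 and 2 (10.9% and 14.7%). Between VitD and control, 0 passed, against 1, higher, with library size only (16.2% of all genes). The count was also 1 with the length trend removed, higher (13.6%), and with DESeq2, lower (14.4%). It was 0 to 1 when a library was left out (1 without VitD replicate 3, beside 14% of all genes). Over the 5 groups, 0 passed, against 5 with the length trend removed (16% of all genes), 32 without both libraries (29.8%) and 8 with DESeq2 (21.6%). It was 0 to 5 when a library was left out, with 5 without pMT replicate 4 (15.7%) and 4 without pMT/VitD replicate 4 (16%). For the interaction, 0 passed, against 6 without both libraries (1.89% of all genes). The cause of these changes was not tested. Counts for pMT against surgery and VitD against surgery were 0 in every alternative run.

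With the replicate number as a block, 2 members passed between pMT/VitD and VitD in place of 9 (15.7% of all genes in place of 21.9%), and no other count of members changed. The number is not known to pair samples: of 24 same-numbered pairs of libraries, 2 correlated above 0.1 (range -0.499 to 0.169), and 5 of 15 libraries correlated best with their own number. Of the 9 called members, Cox5a passed in 23 of 25 alternatives, Atp5d in 22, Atp5sl in 20, Atp5g1 and Uqcrfs1 in 18, Atp5a1 and Atp5e in 17, Uqcr10 in 12 and Uqcrh in 10. Each had a positive fold change in each of them, down to 0.059 for Atp5a1. The alternatives include those without a control, surgery or pMT library, none of which is in this contrast. The median fold change of the members stayed at 0.424 to 0.427 in those, so they test the fold changes little. With 2 libraries in control and in surgery, the spread of those groups is poorly known, and libraries are not tied to separate rats.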
